A study of Mus musculus with 51 samples.

Results

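The LIM homeobox and Islet genes are a family of transcription factors that share a homeodomain, which binds DNA, and a pair of LIM domains, which bind protein partners. The 10 genes described here were Isl1, Isl2, Lhx1, Lhx2, Lhx3, Lhx4, Lhx5, Lhx6, Lhx8 and Lhx9, taken by name from a deposited table of read counts with 24564 genes, and all 10 were in it. RNA was sequenced with Smart-seq2, a full-length method for small RNA amounts, from neurons sorted by fluorescence out of the midbrain of adult mice. The study asked how differentiated neurons change when Polycomb repressive complex 2 (PRC2) is not functional. It held 51 libraries in 8 groups, each labelled as a separate biological replicate with its own code and sex. Midbrain dopaminergic neurons, labelled mDA, came from the strain DatCreEed. They were sampled at 4 months in 10 libraries labelled PRC2 mutant and 9 labelled wt, and at 8 months in 8 PRC2 mutant and 8 wt libraries. Serotonergic neurons, labelled 5HT, came from the strain SertCreEed, with 4 PRC2 mutant and 4 wt libraries at 4 months and the same numbers at 8 months. Both genotypes carry the same strain label in each cell type, and the labels do not say whether wt mice carried Cre. By the strain names, Cre was driven by the dopamine transporter (Dat) or serotonin transporter (Sert) gene and acted on Eed, which encodes a core PRC2 subunit, so mutant cells are those in which that transporter gene has been active.

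LIM homeodomain factors act in combination. Their LIM domains bind the adaptors Ldb1 and Ldb2, which join several factors into one complex on DNA, LIM-only proteins compete for the same adaptors, and the set of family members that a young neuron makes is a classic code for its type. Isl1, Isl2, Lhx3 and Lhx4 are known from motor neurons, Lhx6 and Lhx8 from the ventral forebrain, and Lhx1, Lhx5, Lhx2 and Lhx9 from interneurons of the spinal cord and from several brain regions. PRC2 methylates lysine 27 of histone H3, a mark of silent developmental genes that often lies over promoters rich in CG dinucleotides.

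Promoter sequence from RefSeq (GRCm38.p6) was available for 9 of the 10 genes, Lhx5 being the exception, as 13 windows from 250 bases before to 50 bases after a transcription start. The 4 windows below are those of the 3 genes that were called in both cell types and of the gene whose window holds the fewest CG dinucleotides. Each is written 5′ to 3′ on the gene's strand, and capitals mark every CG. The first is Isl1 (chr13:116309639-116309938, minus strand), the second Isl2 (chr9:55540899-55541198, plus strand), the third the most upstream of 3 Lhx6 starts (chr2:36105359-36105658, minus strand) and the fourth Lhx8 (chr3:154330511-154330810, minus strand).
Isl1: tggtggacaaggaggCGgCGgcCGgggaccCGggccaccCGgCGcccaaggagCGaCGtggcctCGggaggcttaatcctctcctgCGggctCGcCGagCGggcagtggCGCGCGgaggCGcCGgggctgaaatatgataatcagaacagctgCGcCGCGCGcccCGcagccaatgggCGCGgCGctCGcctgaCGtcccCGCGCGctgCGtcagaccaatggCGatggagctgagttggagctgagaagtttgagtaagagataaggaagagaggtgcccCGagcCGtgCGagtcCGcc
Isl2: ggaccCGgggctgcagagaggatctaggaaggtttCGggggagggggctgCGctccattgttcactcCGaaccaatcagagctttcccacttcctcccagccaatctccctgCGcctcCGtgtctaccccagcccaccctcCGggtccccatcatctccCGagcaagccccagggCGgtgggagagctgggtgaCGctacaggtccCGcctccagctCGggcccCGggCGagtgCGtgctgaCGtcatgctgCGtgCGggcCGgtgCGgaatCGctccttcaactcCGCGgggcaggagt
Lhx6: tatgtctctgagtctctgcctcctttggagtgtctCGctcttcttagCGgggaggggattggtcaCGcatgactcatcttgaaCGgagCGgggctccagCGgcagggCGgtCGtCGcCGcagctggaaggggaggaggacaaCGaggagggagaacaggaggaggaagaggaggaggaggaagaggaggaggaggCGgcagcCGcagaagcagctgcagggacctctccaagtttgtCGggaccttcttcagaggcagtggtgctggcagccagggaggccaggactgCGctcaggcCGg
Lhx8: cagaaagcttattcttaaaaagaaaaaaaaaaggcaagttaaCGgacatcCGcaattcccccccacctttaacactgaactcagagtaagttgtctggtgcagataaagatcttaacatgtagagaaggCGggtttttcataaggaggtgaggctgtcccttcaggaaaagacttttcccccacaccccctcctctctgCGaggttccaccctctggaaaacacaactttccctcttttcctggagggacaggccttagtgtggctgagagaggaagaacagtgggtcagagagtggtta
The Isl1 window holds 37 CG, the Isl2 window 23, this Lhx6 window 16 and the Lhx8 window 4. Over the 13 windows the median was 19, against 7 over all 32851 RefSeq mouse promoter windows of the same length, and 11 of the 13 held at least 10 CG, as did 43.5% of all windows. The letters TAATTA, which read the same on both strands and form a homeodomain core motif, were in 0 of the 13 windows and in 5.3% of all windows. No histone mark or binding was measured in these libraries, so the CG counts stand as a description of the windows.

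Levels are given as CPM, the usual library-size scaling of counts, after TMM adjustment (trimmed mean of M values). Fold changes are mutant over wt, from edgeR's quasi-likelihood test over all tested genes, with the Benjamini-Hochberg adjusted p called below 0.05. One fit held the 35 mDA libraries, with terms for the sequencing batch (set) and for sex, and another the 16 5HT libraries, with a term for sex. Total counts per library ran from 1644460 to 12250492, and 3 counts, the limit that a count of 0 allows, stood for 0.237 to 1.84 CPM. Per-library values of a few CPM therefore rest on few reads. The labelled cell types carried their markers: Th (tyrosine hydroxylase) was between 596 and 3058 CPM in every mDA library and at most 35.8 CPM in every 5HT library, while Tph2 (tryptophan hydroxylase) was between 325 and 3411 CPM in 5HT and at most 28.1 CPM in mDA. Eed was not called lower in libraries labelled mutant. In mDA neurons it averaged 23.7 ± 9.12 CPM in mutants (SD, n = 10) and 14.1 ± 6.32 CPM in wt (n = 9) at 4 months (adjusted p = 0.114), and 22.4 ± 9.30 CPM and 13.5 ± 3.17 CPM (n = 8 each) at 8 months (adjusted p = 0.271). For 5HT neurons the averages were 24.9 ± 3.895 CPM in mutants and 10.2 ± 3.02 CPM in wt at 4 months (adjusted p = 0.554), and 17.6 ± 5.52 CPM and 13.5 ± 2.11 CPM at 8 months (adjusted p = 1; n = 4 each). Counts summed over all exons of Eed do not isolate a deleted part and so check no label, and every direction below rests on the labels. The mDA libraries came in 3 sets by the label sequencing batch: at 4 months set 1 held only female mutants and only male wt, set 3 the reverse, and at 8 months set 3 held wt alone. Set 2 held 4 mutant and 4 wt libraries at 4 months, and 4 mutant and 2 wt libraries at 8 months. Tests within set 2 therefore rest on few libraries. In these bulk libraries, fewer cells of a type and less RNA per cell cannot be told apart.

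In wt neurons the 10 genes were low in most libraries. Their summed level had a median of 12.4 CPM in mDA wt at 4 months, 14.5 CPM in mDA wt at 8 months, and single 5HT wt libraries held 2.699 to 17.7 CPM for all 10 together. Only Lhx1, Lhx4, Lhx5, Lhx9 and Isl1 had enough counts to be tested between the wt cell types. Of these 5, Isl1 was higher in mDA than in 5HT neurons (log2 difference 3.92, SE 0.87, adjusted p = 0.000932), where 11.3% of all tested genes were called higher in mDA. Isl1 averaged 3.10 ± 2.60 CPM (n = 9) in mDA wt at 4 months and 2.81 ± 2.16 CPM (n = 8) at 8 months. In 5HT wt it averaged 0.0518 ± 0.104 CPM at 4 months and 0.381 ± 0.574 CPM at 8 months (n = 4 each). All 5HT wt libraries were in the set labelled 1, where mDA wt held a mean of 4.94 CPM at 4 months (n = 3) and 2.82 CPM at 8 months (n = 4). Cell type and mouse line cannot be told apart in that contrast.

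Members of the family rose in mutants of both cell types, with more calls at 8 than at 4 months. In mDA neurons at 4 months 2 of the 9 tested genes were called higher (Isl2 and Lhx6), where 0.577% of all tested genes were. At 8 months 5 of 9 were called higher (Lhx6, Isl1, Lhx2, Isl2 and Lhx9), against 2.44% of all genes. In 5HT neurons at 4 months none of the 10 was called by edgeR or by DESeq2, with 3 at an unadjusted p under 0.05, and 0.0128% of all genes were called. At 8 months 3 of the 10 were called higher (Lhx6, Isl2 and Isl1), against 0.249% of all genes. No member was called lower in these comparisons, where 0.596% and 1.88% of all genes were in mDA at 4 and 8 months and 0% and 0.147% in 5HT at 4 and 8 months. The median log2 fold change over the tested members was 1.14 and 3.15 in mDA at 4 and 8 months and 1.13 and 4.35 in 5HT at 4 and 8 months, while the median over all tested genes lay between -0.01 and 0.02 in these 4 comparisons. Over the tested members the value was positive for 8 of 9, 9 of 9, 7 of 10 and 10 of 10 genes in the same order. Among wt libraries alone Lhx2, Lhx3, Lhx6, Lhx8 and Isl2 failed the filter on low counts. Where they were tested, they passed through the mutant libraries, which favours positive values. These medians and counts of positive values, and those between ages below, are therefore partly set by the filter.

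**Figure D1:**
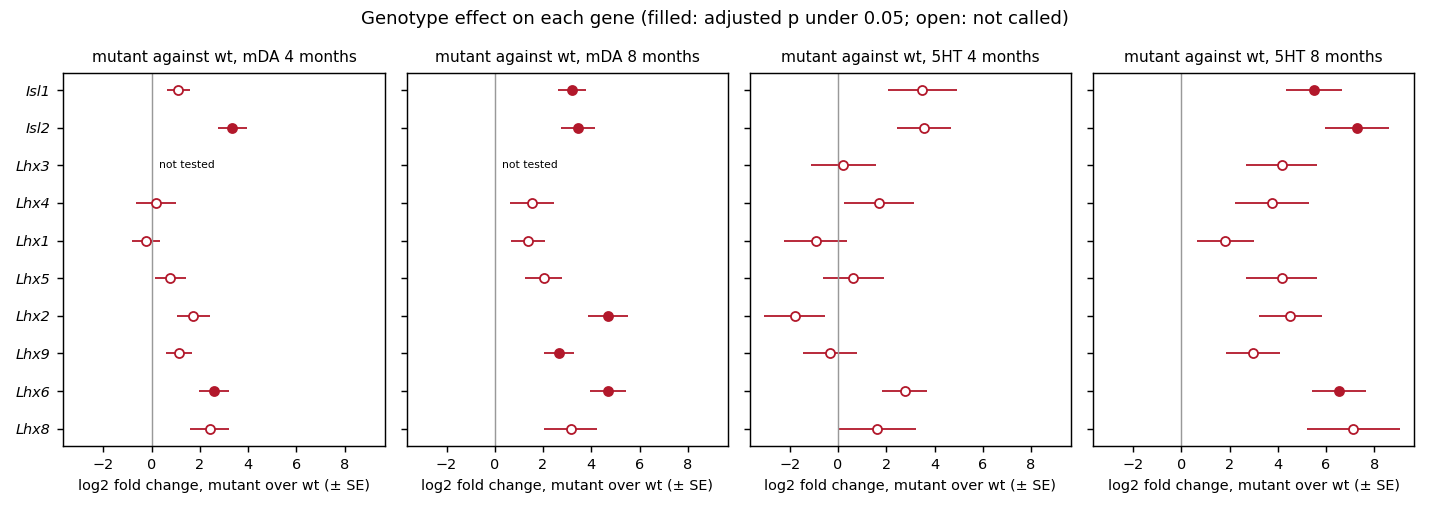
Log2 fold change of mutant over wt (x axis, point with SE) for each gene (rows) in mDA neurons at 4 and 8 months and 5HT neurons at 4 and 8 months. Filled points passed an adjusted p under 0.05; 2, 5, 0 and 3 genes did, and Lhx3 had too few counts to be tested in mDA neurons.

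**Figure D2:**
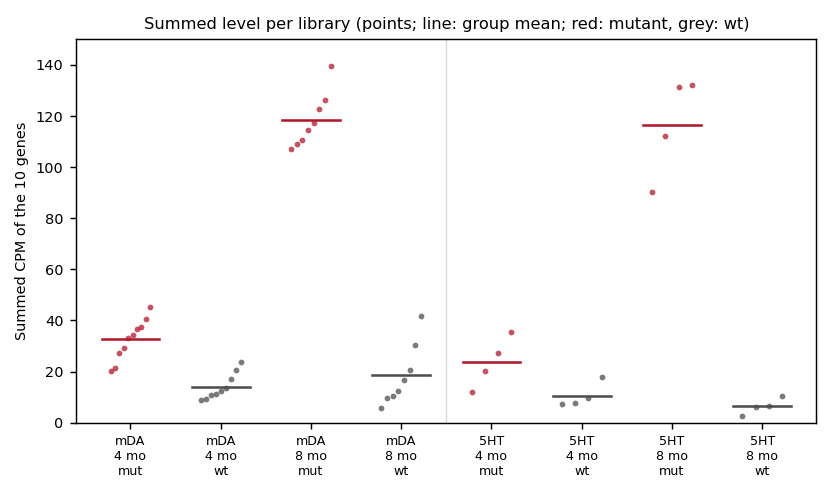
Summed CPM of the 10 genes (y axis) in each library (points, line at the group mean) for the 8 groups, mutants in red beside wt in grey. At 8 months mDA mutants lie between 106.95 and 140 CPM and 5HT mutants between 90.3 and 132 CPM, above all wt libraries of their cell type.

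Summed over the 10 genes, mDA mutants at 4 months held 20.1 to 45.2 CPM (median 33.7), against 8.70 to 23.6 CPM (median 12.4) in wt, so the groups overlapped at their edges. At 8 months mDA mutants held 106.95 to 140 CPM (median 116), against 5.72 to 41.8 CPM (median 14.5) in wt, with a gap between the groups. In 5HT neurons at 4 months the mutants held 12.1, 20.4, 27.3 and 35.5 CPM, against 7.26, 7.86, 9.53 and 17.7 CPM in wt. At 8 months the 5HT mutants held 90.3, 112, 131 and 132 CPM, against 2.699, 6.08, 6.52 and 10.2 CPM in wt. At 4 months 3 of 4 5HT mutants were above all wt libraries, and at 8 months all 4 were, at sums in the range of the mDA mutants or just under it.

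The Islet genes are described first. Isl1 is needed for motor neurons to form and also acts in sensory neurons, the retina and the ventral forebrain. In mDA mutants at 8 months Isl1 ran from 26.0 to 40.5 CPM (median 33.1), against 0 to 6.14 CPM (median 3.13) in wt. Every mutant was above every wt library, and the mutants spread little, with a coefficient of variation of 0.129, the lowest of the 10 genes in that group. The fold change was 9.18 (log2 3.198, SE 0.56, adjusted p = 0.000148). At 4 months Isl1 ran from 0.909 to 13.7 CPM (median 7.44) in mDA mutants, against 1.11 to 8.82 CPM (median 1.57) in wt. These groups overlapped, with 2 of 10 mutants above the highest wt library, and the gene was not called (log2 1.11, SE 0.47, adjusted p = 0.252).

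In 5HT neurons Isl1 was all but unread in wt. At 8 months the mutants held 12.3, 16.1, 22.2 and 22.9 CPM, against 0, 0, 0.312 and 1.21 CPM in wt, without overlap. It was called higher (log2 5.50, SE 1.17, adjusted p = 0.0302). That call was lost when any 1 of 7 libraries was left out (mutants S442, S443, S446 and S447, wt S381, S382 and S383), with adjusted p between 0.0841 and 0.169 and log2 values between 5.10 and 5.65. At 4 months the 5HT mutants held 0.164, 0.187, 0.622 and 2.42 CPM, against 0, 0, 0 and 0.207 CPM in wt. This was 12 reads over the mutants against 1 read over the wt group, a ratio of 11.3 with a 95% counting interval of 1.67 to 481 (adjusted p = 0.712).

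Isl2, a close relative of Isl1 known from motor neurons and retinal ganglion cells, differed at both ages. In mDA mutants at 4 months it ran from 2.28 to 9.57 CPM (median 6.01), against 0 to 1.36 CPM (median 0.673) in wt. All 10 mutants were above all 9 wt libraries, a separation that 0.0778% of tested genes showed, and Isl2 was the one member to show it there. The fold change was 10.1 (log2 3.34, SE 0.61, adjusted p = 0.0016). Within set 2 alone the value was 2.75 and was not called (adjusted p = 0.414), and without the 4 set 1 mutants it was 2.84 (adjusted p = 0.211).

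At 8 months Isl2 ran from 2.33 to 22.03 CPM (median 14.7) in mDA mutants, against 0 to 4.16 CPM (median 1.10) in wt. All mutants but D175, at 2.33 CPM, were above the highest wt library, and the fold change was 10.9 (log2 3.45, SE 0.70, adjusted p = 0.00116). Within set 2 alone it was not called (2.10, adjusted p = 0.495). In 5HT neurons at 8 months the mutants held 9.72, 10.6, 18.5 and 22.4 CPM, against 0, 0, 0 and 0.415 CPM in wt. With 376 reads over the mutants and 2 over the wt group, the ratio was 175.1, with a counting interval of 48.1 to 1451, and the gene was called (adjusted p = 0.00832). Leaving out wt library S383 or S385 moved the adjusted p to 0.0536 and 0.0579. At 4 months the 5HT mutants held 2.62, 2.82, 4.36 and 9.69 CPM, against 0, 0, 0.176 and 1.97 CPM in wt. These groups did not overlap either, as for 1.46% of tested genes, but Isl2 was not called (log2 3.55, SE 1.12, adjusted p = 0.57).

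Lhx3 and Lhx4 specify motor neurons together with Islet factors and also act in the pituitary. Lhx3 had the fewest reads of the 10 genes over all libraries and failed the filter on low counts in mDA neurons. There it ran from 0.186 to 3.88 CPM (median 1.73) in mutants at 8 months, against 0 to 3.86 CPM (median 0.662) in wt, and from 0 to 3.68 CPM (median 0.551) in mutants at 4 months, against 0 to 2.91 CPM (median 0.285) in wt. The ranges overlapped nearly in full at both ages. In 5HT neurons at 8 months Lhx3 stood at 1.39, 2.39, 3.07 and 5.79 CPM in mutants, against 0.156, 0.173, 0.181 and 0.208 CPM in wt, without overlap but not called (log2 4.16, SE 1.47, adjusted p = 0.502). At 4 months it stood at 0, 0.403, 0.561 and 1.71 CPM in 5HT mutants, against 0, 0, 0.669 and 1.61 CPM in wt (adjusted p = 0.994).

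Lhx4 was called by neither edgeR nor DESeq2 in any genotype comparison over all sets. At 8 months it ran from 1.06 to 9.99 CPM (median 4.89) in mDA mutants, against 0 to 6.75 CPM (median 0.960) in wt (log2 1.55, SE 0.92, adjusted p = 0.393). The sequencing sets differed: in set 1 mutants held 4.20 to 9.99 CPM against 0 to 0.767 CPM in wt, and the gene was called there (log2 3.69, adjusted p = 0.0159), while in set 2 mutants held 1.06 to 5.64 CPM against 1.78 and 6.75 CPM in wt (-0.09, adjusted p = 0.999). In 5HT neurons at 8 months it stood at 1.39, 4.96, 6.14 and 6.74 CPM in mutants, against 0, 0, 0.181 and 1.56 CPM in wt, with mutant S443 below wt S385 (log2 3.75, SE 1.54, adjusted p = 0.788). At 4 months Lhx4 ran from 0 to 4.56 CPM (median 0.764) in mDA mutants against 0 to 2.46 CPM (median 1.15) in wt. In 5HT at 4 months it stood at 0.934, 2.46, 2.99 and 8.47 CPM in mutants against 0, 0, 1.06 and 5.35 CPM in wt, with overlap in both cell types.

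Lhx6 and Lhx8 belong to the ventral forebrain, where Lhx6 directs cortical interneurons and Lhx8 cholinergic neurons. Lhx6 was the member called in the most genotype comparisons together with Isl2, 3 of the 4. In mDA mutants at 8 months it ran from 4.79 to 21.97 CPM (median 14.5), against 0.171 to 1.67 CPM (median 0.659) in wt, without overlap. The fold change was 25.9 (log2 4.70, SE 0.75, adjusted p = 2.86e-05), the smallest p among the members in that comparison. Within set 2 alone Lhx6 had a similar value and was not called (4.51, adjusted p = 0.132). In 5HT mutants at 8 months Lhx6 stood at 12.4, 25.2, 32.2 and 32.9 CPM, against 0, 0.208, 0.347 and 0.362 CPM in wt. The gap was wide (log2 6.54, SE 1.12, adjusted p = 0.00533), and the call held without any 1 of the 16 libraries, with adjusted p up to 0.0467.

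At 4 months Lhx6 ran from 0.634 to 8.20 CPM (median 3.48) in mDA mutants, against 0 to 2.87 CPM (median 0.285) in wt. Of the 10 mutants 6 were above the highest wt library, and the gene was called (6.004-fold, log2 2.59, SE 0.62, adjusted p = 0.0262). The call did not hold without the mutant C269 or any 1 of the wt libraries D296, C240, C241, D942 and D943 (adjusted p 0.0506 to 0.0928), nor without a term for sequencing set (2.25, adjusted p = 0.0862), within set 2 (1.72, adjusted p = 0.748) or without the set 1 mutants (2.01, adjusted p = 0.389). In 5HT neurons at 4 months Lhx6 stood at 0.934, 5.24, 6.90 and 17.4 CPM in mutants, against 0, 0, 1.06 and 3.35 CPM in wt, with 3 of 4 mutants above all wt and no call (log2 2.76, SE 0.95, adjusted p = 0.62).

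Lhx8 was low in every group. At 8 months it ran from 1.498 to 8.35 CPM (median 4.25) in mDA mutants, against 0 to 2.28 CPM (median 0.207) in wt, and was not called (log2 3.15, SE 1.10, adjusted p = 0.0961). Mutants of set 1 held 1.498 to 3.196 CPM and those of set 2 5.30 to 8.35 CPM. Without wt library C45, which held the 2.28 CPM, Lhx8 was called (log2 5.45, adjusted p = 0.00475), as it was without a term for sequencing set (3.49, adjusted p = 0.009), by DESeq2 (3.23, adjusted p = 0.0135) and within set 2 (adjusted p = 0.0475), where both wt libraries held 0 reads of it. In 5HT neurons of that age mutants stood at 3.13, 3.68, 6.95 and 7.51 CPM, against 0, 0, 0 and 0.208 CPM in wt. That was 128 reads against 1 read, a ratio of 119 with a counting interval of 21.0 to 4744, and edgeR did not call it (adjusted p = 0.161), while DESeq2 did (adjusted p = 0.00887).
At 4 months Lhx8 ran from 0 to 6.45 CPM (median 1.82) in mDA mutants, against 0 to 0.670 CPM (median 0.388) in wt, with 6 of 10 mutants above the highest wt library (log2 2.41, SE 0.82, adjusted p = 0.135). In 5HT at 4 months it stood at 0, 0, 0.164 and 4.84 CPM in mutants and 0, 0, 0.207 and 0.882 CPM in wt, where mutant S427 alone was above the wt libraries.

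Lhx1 and Lhx5 act in inhibitory interneurons of the spinal cord and in Purkinje cells. edgeR called neither between genotypes over all libraries, and DESeq2 called Lhx5 in 5HT at 8 months. At 8 months Lhx1 ran from 1.56 to 8.55 CPM (median 5.34) in mDA mutants, against 0.297 to 6.68 CPM (median 1.57) in wt, with wide overlap (log2 1.37, SE 0.70, adjusted p = 0.304). At the same age 5HT mutants stood at 3.37, 6.12, 6.82 and 7.99 CPM, against 0, 1.04, 1.81 and 3.64 CPM in wt, with mutant S447 below wt S385 (log2 1.83, SE 1.18, adjusted p = 1). At 4 months it was among the few members with a value below 0: it ran from 0 to 6.22 CPM (median 2.28) in mDA mutants, against 0.851 to 7.97 CPM (median 3.45) in wt (log2 -0.23, adjusted p = 0.904). In 5HT at 4 months it stood at 0.164, 0.561, 0.778 and 0.807 CPM in mutants, against 0, 0.893, 2.34 and 2.90 CPM in wt (log2 -0.93, adjusted p = 0.973).

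At 8 months Lhx5 ran from 0.418 to 15.0 CPM (median 9.56) in mDA mutants, against 0 to 7.33 CPM (median 2.23) in wt. It spread more than most members, with 5 of 8 mutants above the highest wt library, and was not called (log2 2.02, SE 0.77, adjusted p = 0.137). It was called within set 1 (3.39, adjusted p = 0.036) and without wt library D147, which held the highest wt value (3.23, adjusted p = 0.0348). Its 5HT values at 8 months were 2.15, 7.47, 9.93 and 13.8 CPM in mutants, against 0.173, 0.623, 1.404 and 1.81 CPM in wt, without overlap. edgeR did not call it (log2 4.17, SE 1.47, adjusted p = 0.499), and DESeq2 did (4.30, adjusted p = 0.0327). At 4 months the groups overlapped in both cell types, with 0.326 to 9.54 CPM (median 1.76) in mDA mutants against 0.287 to 3.78 CPM (median 1.12) in wt. In 5HT at 4 months Lhx5 stood at 0, 0.747, 2.33 and 4.84 CPM in mutants against 0, 0, 0.622 and 3.88 CPM in wt.

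Lhx2 patterns the cortex and the eye, and Lhx9, its nearest relative, acts with it in commissural neurons of the spinal cord and also in the gonad. At 8 months Lhx2 ran from 9.61 to 22.5 CPM (median 15.6) in mDA mutants, against 0 to 1.54 CPM (median 0.394) in wt. No wt library came near a mutant one, and the fold change was 25.8 (log2 4.69, SE 0.84, adjusted p = 0.000191). Within set 2 alone it was not called (3.99, adjusted p = 0.28). In 5HT mutants at 8 months Lhx2 stood at 9.50, 18.0, 19.8 and 21.4 CPM, against 0, 0, 1.72 and 1.81 CPM in wt. These were levels like those of mDA mutants, without overlap, and edgeR did not call the gene (log2 4.52, SE 1.30, adjusted p = 0.219), while DESeq2 did (4.65, adjusted p = 0.00336).
At 4 months Lhx2 had opposite signs in the cell types, neither called. It ran from 0 to 9.43 CPM (median 2.18) in mDA mutants, against 0 to 2.28 CPM (median 0.889) in wt (log2 1.74, adjusted p = 0.196). It stood at 0, 0.311, 0.329 and 1.21 CPM in 5HT mutants, against 0, 0.622, 2.29 and 2.68 CPM in wt (log2 -1.79, adjusted p = 0.919).

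At 8 months Lhx9 ran from 8.19 to 29.8 CPM (median 15.8) in mDA mutants, against 0.171 to 18.4 CPM (median 2.35) in wt. The groups overlapped through 1 wt library, C250, at 18.4 CPM, which was above 4 of 8 mutants, while the next wt library held 5.94 CPM. The gene was called (6.39-fold, log2 2.68, SE 0.62, adjusted p = 0.00586), but not within set 2 alone (2.19, adjusted p = 0.599). In 5HT mutants at 8 months it stood at 5.96, 10.1, 14.7 and 18.6 CPM, against 0, 0.362, 2.50 and 3.12 CPM in wt, without overlap and without a call (log2 2.97, SE 1.12, adjusted p = 0.621). At 4 months it ran from 0.665 to 7.56 CPM (median 3.5005) in mDA mutants, against 0 to 6.17 CPM (median 1.35) in wt. In 5HT at 4 months it stood at 0.156, 0.493, 2.24 and 4.44 CPM in mutants against 0.176, 2.69, 3.35 and 3.40 CPM in wt, with overlap in both cell types.

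**Figure D3:**
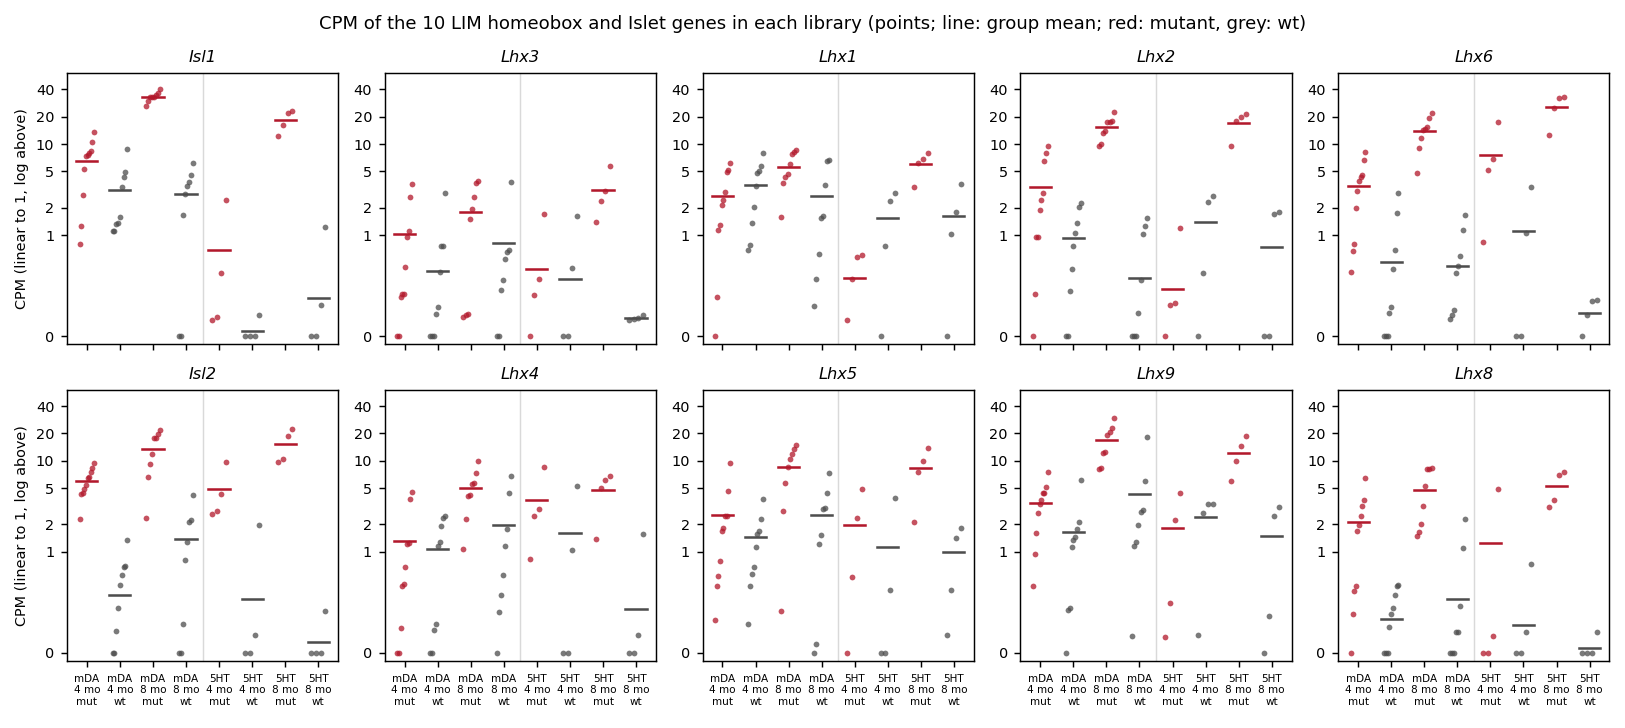
CPM of each gene (10 panels, y axis linear up to 1 and logarithmic above) in every library (points, line at the group mean) by cell type, age and genotype, mutants in red beside wt in grey. At 8 months Isl1, Lhx2 and Lhx6 do not overlap between mDA mutants and wt, while Lhx1, Lhx3 and Lhx4 do.

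At 8 months 3 of the 9 tested genes had every mDA mutant above every wt library (Isl1, Lhx2 and Lhx6), where 0.888% of tested genes did. In 5HT neurons 8 of 10 did, all but Lhx1 and Lhx4, where the share among tested genes was 3.72%. Members that passed the filter on low counts through the mutant libraries are more likely to separate in this way. These counts, and the separations of Isl2 at 4 months, are therefore partly set by the filter and not only by genotype. The 2 cell types thus differed in how many members were called and in how many separated, with 8 libraries a genotype in mDA and 4 in 5HT. The difference between their genotype effects was tested directly. At 4 months none of the 10 differed by edgeR or DESeq2 (1 at an unadjusted p under 0.05), with 0.0925% of all genes called. At 8 months none differed by either tool (3 at an unadjusted p under 0.05), with 0.179% of all genes called. The nearest was Isl2, with a log2 effect smaller in mDA than in 5HT by 3.70 (value -3.70, SE 1.34, adjusted p = 0.449), a value that rests on 2 reads in the 5HT wt group.

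The effect of genotype at 8 months minus that at 4 months was tested within each cell type. All 9 tested members had a positive difference in mDA, and none was called by edgeR (3 at an unadjusted p under 0.05), where 6.11% of all genes were called in either direction. The largest were Lhx2 (2.95, SE 1.004, adjusted p = 0.0687), Lhx6 (2.11, SE 0.94, adjusted p = 0.183) and Isl1 (2.09, SE 0.69, adjusted p = 0.06), while Isl2 was near 0 (0.11, SE 1.16, adjusted p = 0.974). DESeq2 called 2 of them, Lhx2 (adjusted p = 0.0279) and Isl1 (adjusted p = 0.032). With edgeR, Lhx2 was called without wt D107 or D295 or mutant D187, and Isl1 without wt D147 or C250 or mutant D237 or C269, with adjusted p from 0.0274 to 0.0496. Isl1 was also called without a term for sequencing set (2.37, adjusted p = 0.0392). In 5HT neurons all 10 differences were positive and none was called by edgeR (5 at an unadjusted p under 0.05), where 0.0128% of all genes were. DESeq2 called 1, Lhx2 (6.50, adjusted p = 0.0292).

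Age was also compared within genotypes, in comparisons that share libraries with those above. Between 8 and 4 months in mDA mutants 4 of 9 members were called higher at 8 months, against 4.73% of all genes. These were Isl1 (log2 2.13, SE 0.46, adjusted p = 0.00246), Lhx9 (2.31, SE 0.57, adjusted p = 0.00864), Lhx6 (2.10, SE 0.57, adjusted p = 0.0184) and Lhx2 (2.17, SE 0.62, adjusted p = 0.0239). Isl2, called at both ages against wt, was not among them (1.08, SE 0.52, adjusted p = 0.216), and DESeq2 added Lhx4 (2.20, adjusted p = 0.0334). In mDA wt none was called by edgeR or DESeq2 (1 at an unadjusted p under 0.05), and 0% of all genes were. In 5HT wt none was called by either tool (0 at an unadjusted p under 0.05), and 0% of all genes were. In 5HT mutants edgeR called none (6 at an unadjusted p under 0.05) and 0.243% of all genes, with Lhx2 at 5.45 (adjusted p = 0.114) and Isl1 at 4.44 (adjusted p = 0.131). DESeq2 called those 2. Age cannot be told apart from anything else that differed between the 2 rounds of sampling.

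Levels of different genes were ranked per kilobase of exonic length. On that scale Isl1 led in mDA mutants at 8 months with 8.40 ± 1.09 CPM per kb (SD, n = 8), followed by Isl2 with 6.10 ± 3.18, Lhx2 with 3.48 ± 0.997 and Lhx5 with 3.17 ± 1.92 CPM per kb. In 5HT mutants at 8 months the leading genes were Isl2 with 6.98 ± 2.81, Lhx6 with 5.35 ± 1.98, Isl1 with 4.64 ± 1.28 and Lhx2 with 3.91 ± 1.20 CPM per kb (n = 4). Lhx3 and Lhx4 closed the order in both, between 0.585 and 1.04 CPM per kb. No gene in either order differed from its next neighbour by more than the larger of their 2 SDs. The leading gene per kb was Isl1 in 6 and Isl2 in 2 of 8 mDA mutants at 8 months, and Isl2 in 2 and Lhx6 in 2 of 4 5HT mutants. In the 8 mDA wt libraries of that age 5 different members led.

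**Figure D4:**
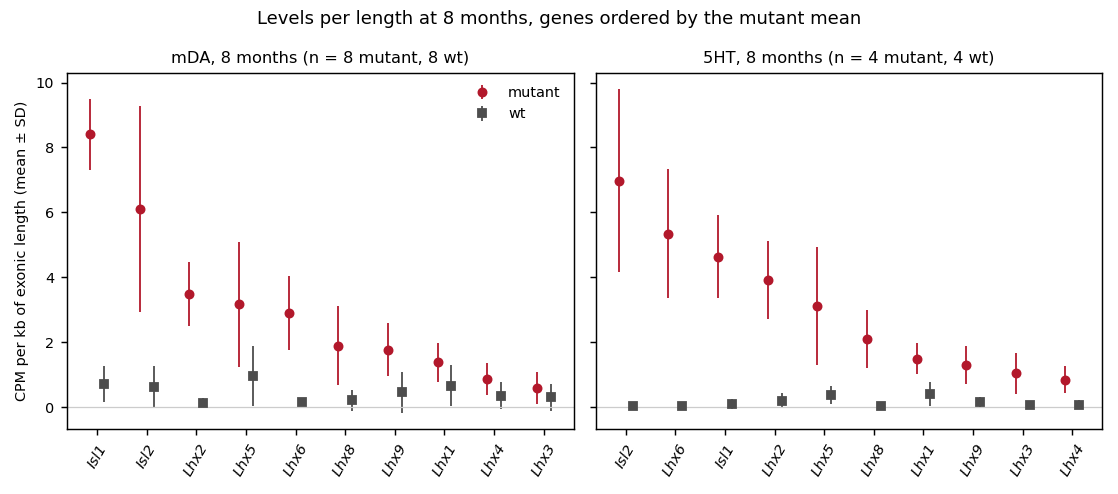
Level per length (y axis, CPM per kb of exonic length, mean ± SD) of the 10 genes (x axis, ordered by the mutant mean) at 8 months in mDA and 5HT neurons, mutants left of wt. Isl1 leads in mDA mutants at 8.40 and Isl2 in 5HT mutants at 6.98 CPM per kb.

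Most members were read together in the same libraries. At 8 months a median of 7 of the 10 genes (range 6 to 8) reached 5 CPM in a mDA mutant library, against 0 (range 0 to 3) in wt, and a median of 8 (range 6 to 9) in a 5HT mutant library, against 0 (range 0 to 0) in wt. At 4 months the medians were 2 (range 1 to 4) in mDA mutants against 0 (range 0 to 2) in wt, and 1.5 (range 0 to 2) in 5HT mutants against 0 (range 0 to 1) in wt. The cut of 5 CPM was not scaled for gene length. The spread between mutant libraries was smaller at 8 months: the median coefficient of variation of the 10 genes was 0.864 and 0.491 in mDA mutants at 4 and 8 months, and 1.08 and 0.411 in 5HT mutants at 4 and 8 months. Levels were also lower at 4 months, and the part of counting error in this spread was not tested. These libraries pool many cells, so they do not show whether single neurons held several members.

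Over the 8 group means on the log2(CPM + 1) scale, each member's correlation with the mean of the other 9 ran from 0.799 (Lhx1) to 0.991 (Lhx8). Of 16591 other genes, those most like the mean profile of the 10 were Tbx3 (r = 0.989), Tfap2b (0.988), Hoxa7 (0.988), Foxf1 (0.983) and Evx1 (0.982), which all encode developmental transcription factors. These are descriptions over 8 points that share libraries, scaling and the split by genotype.

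The cofactor genes were tested as a list of 6: Ldb1 and Ldb2, which encode the adaptors, Ssbp2, Ssbp3 and Ssbp4, whose proteins bind the adaptors, and Rlim, a ubiquitin ligase that acts on them. edgeR called 0 of the 6 in each of the 4 genotype comparisons, with 0 and 0 at an unadjusted p under 0.05 in mDA at 4 and 8 months and 2 and 1 in 5HT at 4 and 8 months, and DESeq2 called 1, which was lower, in 5HT at 8 months alone. In mDA at 8 months their log2 values lay between -0.30 and 0.20. Of 4 LIM-only genes in mDA at 8 months, Lmo4 fell, with 38.3 ± 8.16 CPM in mutants and 88.0 ± 11.3 CPM in wt (log2 -1.15, SE 0.16, adjusted p = 2.99e-06). Lmo2 rose, with 17.8 ± 6.64 CPM and 5.14 ± 2.83 CPM (log2 1.73, SE 0.50, adjusted p = 0.0348). The Lmo2 call was lost without any 1 of wt C47, C49 and D147 or mutants D265, C42, D161 and D176 (adjusted p 0.0529 to 0.105), and within either set. Lmo1 (-0.39) and Lmo3 (-0.23) were not called. In the other 3 comparisons edgeR and DESeq2 called none of the 4, and none had an unadjusted p under 0.05. The 2 other LIM homeobox genes considered here, Lmx1a and Lmx1b, help specify midbrain dopaminergic neurons, and Lmx1b also serotonergic ones. Neither was called by edgeR or DESeq2 in any of the 4 comparisons, and neither had an unadjusted p under 0.05. At 8 months Lmx1a averaged 25.8 ± 8.48 CPM in mDA mutants and 31.2 ± 9.84 CPM in wt (log2 -0.37, SE 0.24, adjusted p = 0.437).

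Genes that act with the family in other neuron types were counted in 3 lists. Of 11 motor neuron and cholinergic genes, 8 were tested in mDA at 8 months. Mnx1, a motor neuron homeobox gene, was called higher and had 204 reads over the mutants against 3 over wt, a ratio of 49.4 with a counting interval of 16.7 to 242 (adjusted p = 0.000153). Chat, which makes acetylcholine, was not called (0.44, SE 0.81, adjusted p = 0.833), and the 4 cholinergic markers Chat, Slc18a3, Slc5a7 and Prph summed to 9.29 to 21.5 CPM in mutants against 2.56 to 26.3 CPM in wt.

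Of 14 forebrain interneuron genes, 12 were tested in mDA at 8 months, 5 were called higher and 1 lower. In that comparison 2.44% of all tested genes were called higher and 1.88% lower, which also applies to the sensory list below. Dlx5, Dlx6 and Dlx2 are homeobox genes of ventral forebrain neurons and Nkx2-1 specifies the region from which Lhx6 neurons arise. Dlx5 averaged 8.35 ± 3.17 CPM in mutants and 0.126 ± 0.169 CPM in wt (log2 6.38, SE 0.93, adjusted p = 6.13e-06). Nkx2-1 averaged 9.98 ± 4.40 CPM in mutants and 0.133 ± 0.244 CPM in wt (5.36, SE 0.86, adjusted p = 3.57e-05). Dlx6 (4.20, adjusted p = 0.00143) and Dlx2 (4.16, adjusted p = 0.00179) were also called. The fifth was Dlx1 (2.81, adjusted p = 0.0392), and the 1 that fell was Satb1 (-0.70, adjusted p = 0.00385); both are named after their values were seen. The Dlx1 call was lost without any 1 of wt C45, C49, C51 and D147 or mutants D265, D276, C213 and C269 (adjusted p 0.0508 to 0.0921) and within either set. Of 11 sensory and dorsal interneuron genes, 7 were tested, 3 were called higher and 1 lower: the homeobox gene Barhl2 (4.31, adjusted p = 0.0115), the sensory neuron factors Pou4f1 (2.55, adjusted p = 0.0247) and Pou4f2 (3.09, adjusted p = 0.0357), and the forkhead gene Foxp2 (-0.87, adjusted p = 2.02e-05). Pou4f1 lost its call without any 1 of wt C45, C47, C49, C51 and D107 or mutant C42 (adjusted p 0.0509 to 0.0969). Pou4f2 lost it without any 1 of wt C47, C49, C51, D107 and D147 or mutants D265, D282, C42 and D161 (adjusted p 0.0501 to 0.088). Of the genes named here from the LIM-only list and these 3 lists that were called in mDA at 8 months, Dlx5 alone kept its call within set 2. The others had an adjusted p of 0.127 (Barhl2) to 0.966 (Satb1) there, in a set of 4 mutant and 2 wt libraries. Without a term for sex the calls of Dlx1 (2.53, adjusted p = 0.0728), Satb1 (-0.53, adjusted p = 0.128) and Pou4f2 (3.21, adjusted p = 0.0509) were lost.

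The median log2 value in mDA at 8 months was 1.53 in the motor neuron list, 1.28 in the forebrain list and 2.29 in the sensory list, against 0.02 over all tested genes. These medians cover only list genes that passed the filter, and some of them, such as Dlx5 and Nkx2-1, had hardly any reads in wt. Passing through the mutant libraries favours positive values, so these medians may be partly set by the filter too. In mDA at 4 months edgeR called 1 gene of the 3 lists, Satb1, which was higher (0.48, SE 0.13, adjusted p = 0.046). Its sign was the reverse of that at 8 months, and the difference between the ages was called (-1.18, SE 0.20, adjusted p = 0.00022). The 4 month call was lost without any 1 of the mutants D186, D187, D192, D237, D238, C270 and D175 or of wt D294, D295, D296, C240, C241, D878, D942, C45 and C47 (adjusted p 0.052 to 0.116). Of these, D175, C45 and C47 were 8 month libraries in the same fit. The Satb1 call at 4 months was also lost with no filter (adjusted p = 0.0655) and without a term for sex (0.0667) or set (0.193). Satb1 was not called there within set 2 (adjusted p = 0.716) or without the set 1 mutants (0.656). DESeq2 called 2 motor neuron, 1 forebrain and 2 sensory genes higher in mDA at 4 months. In 5HT at 8 months edgeR called 1 gene, Dlx1, with 5.98 to 8.33 CPM in mutants and 0 reads over wt, at least 54.3-fold higher against 3 reads over the wt group (adjusted p = 0.0236). That call was lost without any 1 of mutants S442 and S443 or of wt S381, S382, S383 and S385 (adjusted p 0.0668 to 0.115). DESeq2 called 3 forebrain genes and 1 sensory gene higher there. In 5HT at 4 months neither edgeR nor DESeq2 called any gene of the 3 lists, with 3, 1 and 1 at an unadjusted p under 0.05 in the motor neuron, forebrain and sensory lists.

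**Figure D5:**
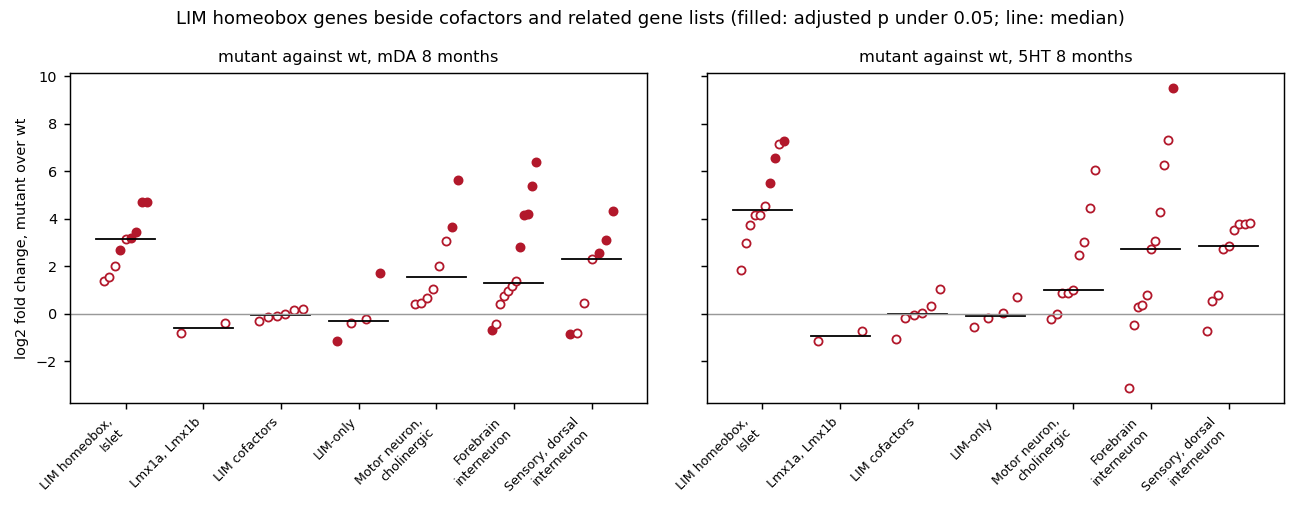
Log2 fold change of mutant over wt (y axis) at 8 months in mDA and 5HT neurons for the LIM homeobox and Islet genes, Lmx1a and Lmx1b, LIM cofactors, LIM-only genes and 3 lists of related neuron programmes (points; filled where the adjusted p was under 0.05; line at the list median). In mDA the family's median is 3.15 and the cofactors lie between -0.30 and 0.20.

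The GABA and glycine markers Gad1, Gad2, Slc32a1 and Slc6a5 were called higher in mDA mutants at 8 months, 4 of 4, against 2.44% of all genes. Their summed level was 480 to 715 CPM in mutants against 113 to 267 CPM in wt, and none was at 0 throughout a group. In 5HT mutants at 8 months 2 of the 4 were called higher, Slc32a1 and Slc6a5, against 0.249% of all genes. The 4 summed to 512 to 579 CPM in mutants against 173 to 272 CPM in wt. At 4 months these sums overlapped in mDA, 115 to 307 CPM in mutants against 140 to 263 CPM in wt, although Gad1 was called higher. The 3 glutamate markers were not called by edgeR at 8 months (1 at an unadjusted p under 0.05 in each cell type, Slc17a6), and summed to 88.7 to 154 CPM in mDA mutants against 61.7 to 115 CPM in wt, and to 127 to 175.7 CPM in 5HT mutants against 71.6 to 128 CPM in wt. The sorted cells' own markers moved the other way at 8 months. In mDA mutants 6 of 7 mDA markers were called lower, against 1.88% of all genes, and the 7 summed to 3013 to 4370 CPM against 5432 to 9867 CPM in wt. In 5HT mutants 4 of 7 5HT markers were called lower, against 0.147% of all genes, and the 7 summed to 2428 to 3087 CPM against 8994 to 10905 CPM in wt. The 6 astrocyte markers, all read, summed in mDA at 8 months to 31.4 to 680 CPM in mutants (median 75.5), against 23.3 to 103 CPM in wt (median 44.9). The endothelial and mural markers summed to 3.35 to 401 CPM in mutants (median 9.98) against 2.54 to 18.5 CPM in wt (median 7.30). Of these 5, 1 was called, and it was higher. Ependymal and choroid markers summed to 7.24 to 172 CPM in mutants (median 56.3) against 9.68 to 100 CPM in wt (median 19.7). None of the 3 tested was called. The part of any of these markers in the family's values was not tested.

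Within 100 kb of the members' starts RefSeq places 37 other genes, of which 21 are in the count table. In mDA neurons at 8 months 2 of them were called between genotypes, both higher in mutants. Of all tested genes 2.44% were called higher and 1.88% lower there. Lhx1os is a non-coding RNA on the strand opposite Lhx1 that starts 126 bases from the Lhx1 start (chr11:84525660-84535831, GRCm38.p6), and the 2 transcripts do not overlap. It averaged 13.02 ± 4.36 CPM in mDA mutants and 3.15 ± 1.60 CPM in wt at 8 months (n = 8 each; log2 2.697, SE 0.55, adjusted p = 0.00109), whereas Lhx1 itself was not called. In 5HT at 8 months Lhx1os averaged 12.54 ± 3.14 CPM in mutants and 2.80 ± 1.58 CPM in wt (n = 4 each) and was not called (2.23, SE 1.01, adjusted p = 0.969). Plbd2, 52007 bases from the Lhx5 start, averaged 87.7 ± 12.9 CPM in mDA mutants and 48.3 ± 13.7 CPM in wt at 8 months (0.82, SE 0.20, adjusted p = 0.00978). Both calls were lost within set 2, and Plbd2 also within set 1. Around Isl1 no other RefSeq gene lay within that distance. Antisense RNAs overlap Lhx2, and reads of Lhx2 and of those RNAs cannot be told apart, since no source used here gives the strand setting of the counting.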

How the data were processed

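Per the labels, cells were sorted by FACS and sequenced with Smart-seq2. Per the submitters' processing notes, reads were handled with STAR 2.7.0a on mm10 (GRCm38). Neither the counting tool nor a strand setting is stated in those notes or in the labels. The deposited values are whole-number counts per gene and library, not normalized by the authors, and the row of a reporter (mcherry) was left out. Genes were filtered with filterByExpr (minimum count 10), scaled by TMM and tested with edgeR 4.0.16 (limma 3.58.1, R 4.3.3) by quasi-likelihood F-test, with Benjamini-Hochberg adjustment over all genes tested and calls at an adjusted p under 0.05. The 35 mDA libraries were fitted with set within age and sex (15425 genes), the 16 5HT libraries with sex (15633 genes), all 51 for differences between cell types (18386 genes) and the 25 wt libraries for their baseline (16178 genes). For 8 against 4 months in mDA neurons the set label was shared over ages. SEs were derived from the log2 fold change and its F. CPM used TMM scaling over all 51 libraries. The fits were tested on simulated data.

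Counting intervals (95%, exact) and the 3-count floor cover counting error only, since PCR copies cannot be told from separate molecules. No pair of libraries within a group was identical, and the lowest chi-square per degree of freedom between 2 libraries of a group was 6.97. The labels give no pairing between groups, so no replicate block was fitted. Library names such as C45 are the codes in the labels. All 10 genes are described in every group. From lists of up to 8 genes all members are named, and from longer lists up to 4 called genes with the smallest p per comparison. A called gene of the motor neuron list is not reported here, though the median of that list includes it. Named besides are the 5 genes most like the mean profile and genes within 100 kb of a member. The members and lists were chosen with earlier results of these data known. Alternatives were DESeq2 1.42.0, its scaling of library size (RLE), no filter, and no term for sex or set. Others were mDA set 1 or set 2 alone, leaving out the 4 set 1 mutants at 4 months, and leaving out each library in turn. Set 1 alone at 4 months was fitted without a term for sex.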

Additional observations from a re-analysis of the deposited data

Results flagged for a closer look

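Within each group, the highest or lowest library was compared with its nearest neighbour for each of the 10 genes, by Dixon's criterion. In 13 of 80 sets of values (10 genes in 8 groups) 1 library stood apart, and in all 13 it was the highest. The criterion marks about 1 in 20 sets by chance where values are normally distributed, which low counts are not, so that rate is no measure for these sets. Of these, 2 were in mutants and 11 in wt.

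In mutants, library S427 held 4.84 CPM of Lhx8 among 5HT mutants at 4 months, where the next held 0.164 CPM, and D186 held 9.54 CPM of Lhx5 among mDA mutants at 4 months, where the next held 4.65 CPM.

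In mDA wt at 8 months, C250 held 18.4 CPM of Lhx9 (next 5.94), above 4 of 8 mutants, and D147 held 3.86 CPM of Lhx3 (next 0.854). In mDA wt at 4 months, D294 held 8.82 CPM of Isl1 (next 4.88), D295 held 6.17 CPM of Lhx9 (next 2.13) and C241 held 2.91 CPM of Lhx3 (next 0.893).

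In 5HT wt at 4 months, S373 held 3.88 CPM of Lhx5 (next 0.622), S374 held 1.97 CPM of Isl2 (next 0.176) and S367 held 0.207 CPM of Isl1 (next 0). In 5HT wt at 8 months, S385 held 1.56 CPM of Lhx4 (next 0.181), while S381 held 0.415 CPM of Isl2 and 0.208 CPM of Lhx8, both with the next library at 0. Values near 0.2 CPM rest on 1 or 2 reads.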

How the results depend on the processing

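No paired analysis was possible because the labels give the groups no shared replicate numbers. In mDA at 4 months 2 members were called, and 1 without a term for set. It was 1 within set 1 and 0 within set 2, where 4 members were tested in each set, and 0 without the 4 set 1 mutants. The fit within set 1 had no term for sex, since its mutants were all female and its wt all male at 4 months. Sex and genotype cannot be told apart in it. Leaving out single libraries gave 1 to 2. In mDA at 8 months 5 were called, 2 within set 2, 7 within set 1, 6 by DESeq2, 6 without a term for set and 5 to 6 without single libraries. In 5HT at 8 months 3 were called, 6 by DESeq2 and 1 to 3 without single libraries, with 1 when S383 was left out. In the difference between ages, 0 were called in mDA, 1 without a term for set, 2 by DESeq2 and 0 to 1 without single libraries, and 0 in 5HT with 1 by DESeq2. Between 8 and 4 months in 5HT mutants 0 were called, 1 without a filter and 2 by DESeq2. The cause was not tested.

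Signs turned round only where no call was made. Lhx1 in mDA at 4 months was 0.37 within set 2 and 0.32 without the set 1 mutants, Lhx4 in mDA at 8 months was -0.091 within set 2, the mDA age difference of Isl2 was -0.13 without a term for set, and the cell-type difference of Lhx5 at 4 months was -0.0058 by DESeq2. Without single libraries, Lhx4 in mDA at 4 months ran from -0.16 to 0.54, in 5HT at 4 months Lhx3 ran from -0.50 to 1.33, Lhx8 from -1.80 to 2.85 and Lhx9 from -1.70 to 0.27, and the mDA age difference ran from -0.026 to 2.96 for Lhx8 and from -0.23 to 0.72 for Isl2. For the members, 1381 of 1425 values without a library and 567 of 597 values under other settings kept their direction and their side of the threshold. Depth limits members read a few times per library.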
